A study of Mus musculus with 3 samples.

Results

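The genes of MHC class I antigen presentation were followed through the cell types of the mouse anorectal junction, the border between the single-layered columnar epithelium of the colon and the stratified squamous epithelium of the anus. The 10 genes H2-K1, H2-D1, H2-T23, B2m, Tap1, Tap2, Tapbp, Psmb8, Psmb9 and Nlrc5 were taken by gene symbol, of 31053 genes in the deposited table, and all 10 were found. Distal colon and anus came from C57Bl/6 mice bought at 6 weeks of age, and their age at dissection was not given in the sources used here. The day 0 library came from untreated mice with histology labelled normal. The day 7 and day 42 libraries came from mice given 3% dextran sulfate sodium (DSS) to drink for 6 days, which damages colonic epithelium and causes colitis, with histology labelled severe colitis at day 7 and recovered at day 42. Each of the 3 libraries pooled tissue of 5 mice, so there was 1 sample per day and no test between days was possible. Intervals, where given, cover counting error alone, and a difference between days describes these 3 libraries.

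Class I molecules carry short peptides from inside a cell to its surface, where T cells and natural killer cells read them. H2-K1 and H2-D1 encode the classical heavy chains, which bind the peptide, and B2m encodes beta-2 microglobulin, the light chain that every one of these heavy chains needs. H2-T23 encodes Qa-1, a nonclassical heavy chain that natural killer cell receptors of the CD94 and NKG2 type recognise. Psmb8 and Psmb9 are subunits of the immunoproteasome, the form of the proteasome that interferon induces and that cuts proteins into peptides suited to class I. Tap1 and Tap2 form the pump that brings peptides into the endoplasmic reticulum, Tapbp (tapasin) ties the pump to empty heavy chains, and Nlrc5 is a transcription coactivator of class I genes.

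In GENCODE M21 (build GRCm38), 8 of the 10 genes lie on chromosome 17, with H2-K1 (ENSMUSG00000061232) at chr17:33996017-34000347 and H2-D1 (ENSMUSG00000073411) at chr17:35262730-35267499. B2m (ENSMUSG00000060802) is at chr2:122147686-122153083 and Nlrc5 (ENSMUSG00000074151) at chr8:94434356-94527272. Psmb9, Tap1, Psmb8 and Tap2 fall within 34335 bases of each other, and Psmb9 and Tap1 start 211 bases apart on opposite strands. A table of RefSeq promoters (GRCm38.p6) held 8 of the 10 genes. Stretches before the RefSeq starts of H2-K1, H2-D1, H2-T23, B2m and Psmb8 are shown because these are the surface subunits and, in Psmb8, the member with the largest differences between days in columnar cells. No GENCODE exon overlaps the 130 bases shown for H2-K1 and B2m. The 30 bases shown for H2-D1, H2-T23 and Psmb8 lie before the RefSeq starts but inside the first exon, in the 5' untranslated region, of a longer GENCODE transcript of the same gene. Capitals mark matches, on either strand, to 5 motifs, and overlapping matches run together. An interferon response-like motif was searched as GAAA, any 2 bases and GAAA, and in a shorter form as GAANNGAAA. TTCNNNGAA is a palindrome, GGGGA, any base and TCCC like those of NF-kappaB, and CCAAT is the core of the Y box.
H2-K1 (chr17:34000359-34000488, minus strand): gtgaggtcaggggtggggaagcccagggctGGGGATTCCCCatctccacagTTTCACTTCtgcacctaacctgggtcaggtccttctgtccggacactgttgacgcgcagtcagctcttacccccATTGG
H2-D1 (chr17:35262923-35262952, plus strand): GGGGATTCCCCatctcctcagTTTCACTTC
H2-T23 (chr17:36032806-36032835, minus strand): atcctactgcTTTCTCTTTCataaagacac
B2m (chr2:122147537-122147666, plus strand): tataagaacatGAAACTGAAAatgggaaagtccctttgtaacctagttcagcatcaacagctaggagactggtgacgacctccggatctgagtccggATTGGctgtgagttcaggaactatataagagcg
Psmb8 (chr17:34198088-34198117, plus strand): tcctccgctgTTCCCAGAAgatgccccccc

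The H2-K1 stretch and the 130 bases of H2-D1 that line up with it had the same base at 119 of 130 positions (91.5%), and their windows shared an unbroken run of 47 bases. Both held the NF-kappaB-like motif, in overlapping matches on the 2 strands, which 0.31% of the 27025 RefSeq promoters of 300 bases contained. Both also held GAANNGAAA, read on the opposite strand as TTTCACTTC, a form chosen after their sequences were seen and present in 7.56% of promoters. The longer interferon response-like form was in H2-T23 and B2m (3.49% of promoters). TTCNNNGAA was in Psmb8 alone among the 8 (8.47% of promoters), and CCAAT was in 7 of the 8 (37.92%). The last 400 bases of each member's longest protein-coding transcript stood for the part that 3' libraries read, and ends of other transcripts were not checked. There 8 of the 10 members, H2-K1 and B2m among them, shared no run of 60 bases with any other gene. H2-D1 shared 6.5% of such runs and H2-T23 28.7% with unrelated genes, so H2-T23 counts carry more uncertainty. Tap1 and Psmb9 overlap each other at their starts, B2m overlaps Patl2, H2-T23 overlaps A930015D03Rik, and Tap2 and Psmb8 overlap Gm20496, each on the opposite strand. Tapbp overlaps Zbtb22, and Nlrc5 overlaps Mir7072, on the same strand. Whether the counting used strand is not given in the sources used here.

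The 3 libraries held 11037, 14376 and 11667 cells and 89241138, 151886649 and 72258639 counts of unique molecular identifiers (UMIs, each standing for 1 captured RNA molecule), and the 10 genes took 0.125%, 0.103% and 0.154% of them. The authors' table named 14 cell types in 29 clusters. Keratinocytes are called squamous below, and columnar takes in colonocytes, the secretory kind and enteroendocrine cells (EEC). Every cell type checked against fixed marker genes had the highest summed marker level of all types in its library, with no defining marker at 0. Cells with over 20% mitochondrial UMIs were 32.1%, 14.9% and 12.97% of the libraries, and pairs of libraries shared 40 to 55 cell barcodes. Levels are the UMIs of a gene summed over the cells of a group and scaled to 1000000 UMIs of that group (CPM), for groups of at least 50 cells, with exact 95% Poisson intervals.

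Among cell types with at least 50 cells, T cells had the highest class I RNA level in each of the 3 libraries. The 10 genes summed to 6781 CPM in T cells in the untreated library (6566 to 7002), and T cells again had the highest value of the day with 5634 at day 7 (5382 to 5896) and 7148 at day 42 (6782 to 7529). Endothelial cells had 4122, 3753 and 6140 CPM, and lymphatic cells 1968, 4068 and 4556. Macrophages and other antigen presenting cells had 4541 CPM at day 0 and 3890 at day 7. Fibroblasts had 1805, 1807 and 2494 CPM, and neutrophils 2649 at day 7 and 4280 at day 42. Keratinocytes had 1236, 791 and 1378 CPM, and colonocytes 1087, 2328 and 2073. Thus colonocytes were below keratinocytes at day 0 and above them at day 7 and day 42, and the Poisson intervals of the pair did not overlap on any day. Red blood cells at day 7, which carry mostly globin RNA, had 66.5 CPM (50.3 to 86.4), with an H2-K1 UMI in 5.24% of 210 cells and a B2m UMI in 8.10%. The next lowest groups of that day were the cells the authors called unknown, with 252 CPM, and keratinocytes.

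**Figure D1:**
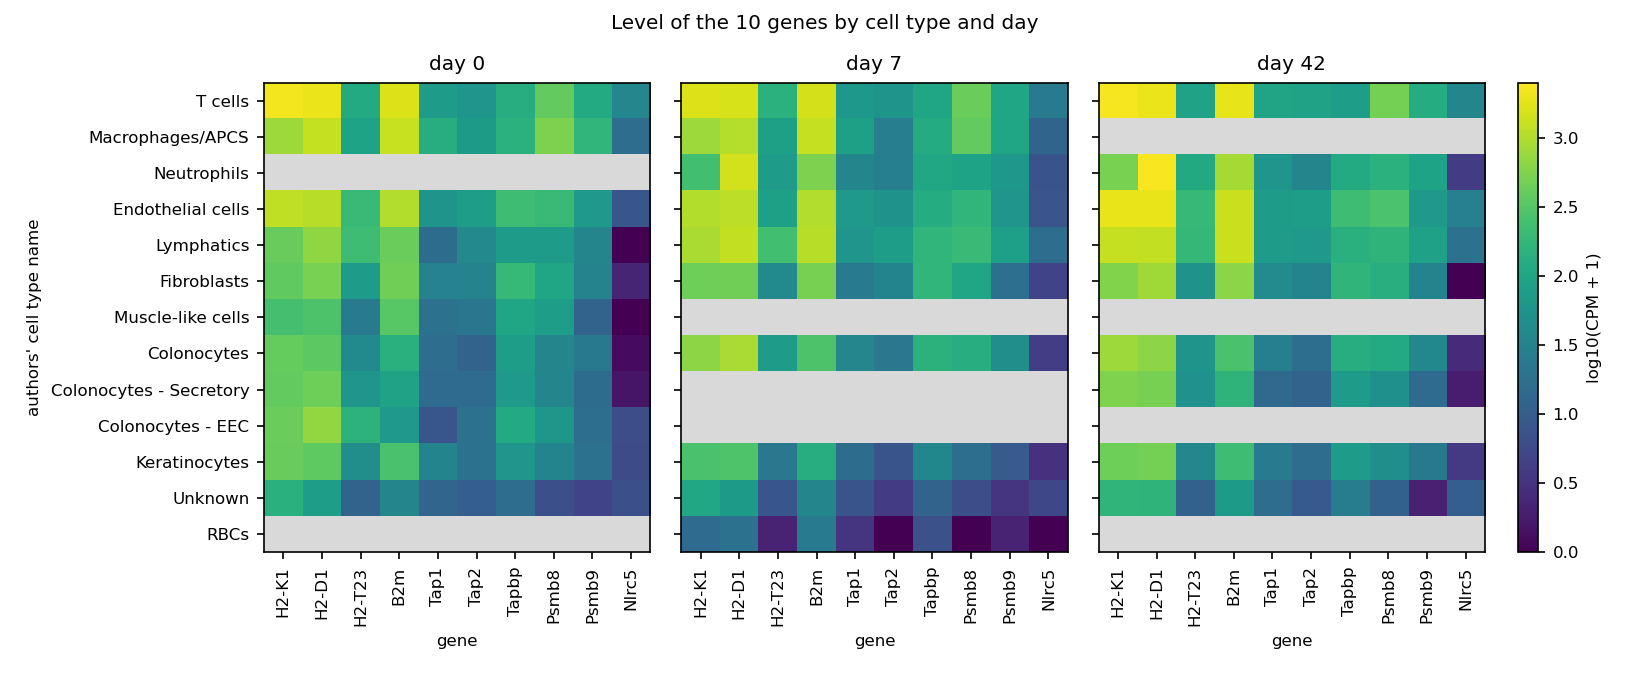
Level of each of the 10 genes (columns) in each of the authors' cell types with at least 50 cells (rows) in the 3 libraries, coloured by log10 of CPM + 1; grey marks types with fewer cells. T cells are bright across the row on every day, with H2-K1 at 2183, 1664 and 2232 CPM, and red blood cells at day 7 are dark.

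The heavy chains did not rank the cell types alike. H2-K1 was highest in T cells (2183, 1664 and 2232 CPM) and second highest in endothelial cells (1188, 1010 and 1912 CPM). The H2-K1 intervals of these types were apart at day 0 and day 7 and overlapped at day 42, and endothelial H2-K1 overlapped that of lymphatic cells at day 7. Neutrophils had 1477 CPM of H2-D1 (1441 to 1515) in the day 7 library and 2326 (2166 to 2495) in the day 42 library. Neutrophil H2-D1 overlapped that of T cells, 1540 and 2027 CPM, on both days. H2-K1 in the same neutrophils was only 234 and 512 CPM, so their ratio of H2-D1 to H2-K1 UMIs was 6.31 at day 7 (5.90 to 6.76) and 4.54 at day 42. Outside neutrophils this ratio ran from 0.555 in unknown cells to 1.71 in EEC, both at day 0. H2-T23 had another order, with lymphatic cells at 220, 235 and 184 CPM and endothelial cells at 202, 85.2 and 191 CPM. The lymphatic and endothelial intervals of H2-T23 overlapped at day 0 and day 42 and not at day 7.

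**Figure D2:**
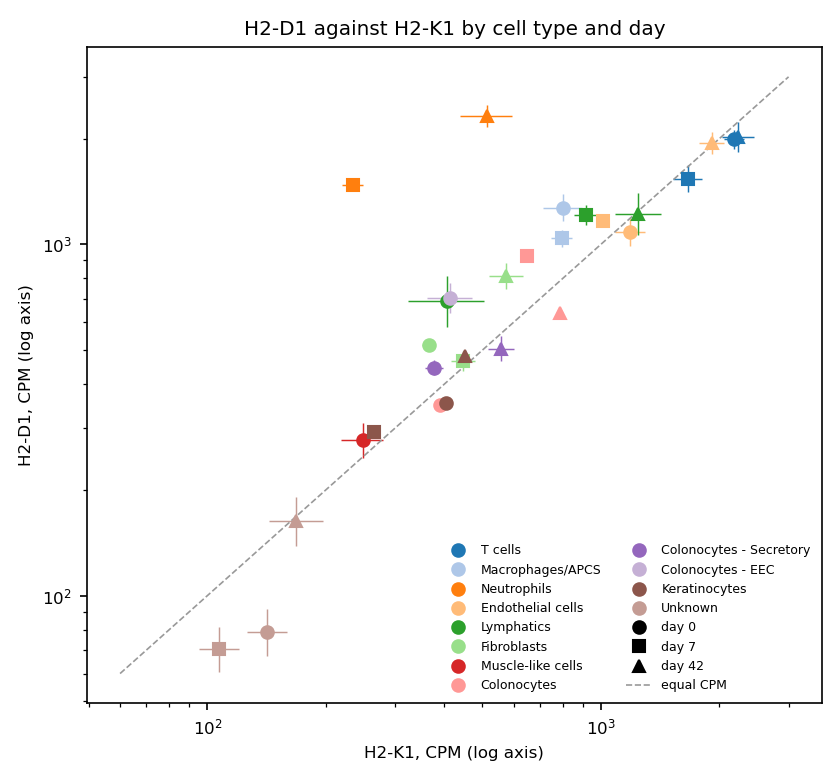
H2-D1 against H2-K1 level in CPM, both axes logarithmic, 1 point per cell type (colour) and day (shape), with bars for the 95% Poisson interval and a dashed line at equal CPM. The 2 neutrophil points stand far above the line, at H2-D1 levels of 1477 and 2326 CPM and H2-K1 levels of 234 and 512 CPM.

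B2m was lowest relative to H2-K1 in EEC. T cells had 1683, 1522 and 1886 CPM of B2m and macrophages 1306 and 1249 at day 0 and day 7. EEC at day 0 had only 66.8 CPM of B2m beside 705 CPM of H2-D1 and 413 of H2-K1, a ratio of B2m to H2-K1 UMIs of 0.16. In secretory colonocytes that ratio was 0.24 at day 0 and 0.29 at day 42, in the colonocytes annotated as neither secretory nor EEC 0.37, 0.44 and 0.33, and in macrophages 1.63 and 1.57. The EEC value rests on 38 B2m UMIs in 78 cells, and EEC were fewer than 50 cells in the later libraries. The interval of the EEC ratio (0.11 to 0.23) overlapped those of secretory colonocytes (0.21 to 0.27) and unknown cells (0.18 to 0.32) at day 0.

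Among cell types with at least 50 cells, Psmb8 and Psmb9 were highest in macrophages or T cells on every day, while Tap2 was on day 42 and Tapbp on no day. Psmb8 had 531 CPM in macrophages at day 0 (462 to 608) and 377 at day 7, and 387, 416 and 487 CPM in T cells, against 34.8 CPM in columnar and 33.1 in squamous cells at day 0. Psmb9 was likewise highest in macrophages at day 0, at 173 CPM, and in T cells later, at 99.5 and 125 CPM, and the intervals of both types overlapped at day 0 and day 7. Tap1 had 132 CPM in macrophages and 74.2 in T cells at day 0. Tap2 was highest in endothelial cells at day 0, with 80.6 CPM against 71.1 in macrophages and 59.7 in T cells, and in lymphatic cells at day 7, with 79.98 against 57.3 in T cells. At day 42 T cells were highest for Tap2, with 90.3 CPM against 80.6 in endothelial and 69.1 in lymphatic cells, and on each day these intervals overlapped. Tapbp was spread otherwise: endothelial cells had 218, 125 and 223 CPM and fibroblasts 187, 173 and 165 CPM, against 128, 99.5 and 80.3 CPM in T cells. The day 7 intervals of endothelial and T cells overlapped, and those of fibroblasts and T cells did not. Nlrc5 was sparse, with 36.2, 24.1 and 35.1 CPM in T cells from 20, 8 and 7 UMIs. In columnar cells Nlrc5 had 0.365, 3.37 and 1.43 CPM, from 16, 30 and 16 UMIs among 4306, 1062 and 1680 cells. Over the 30 sums of a cell type and day, log2(CPM + 10) of 2 members correlated with Pearson r from 0.27 for Tapbp and Nlrc5 to 0.94 for Psmb8 and Psmb9. These points share libraries and totals, and the r values are descriptions. The genes outside the members closest to their mean over the same 30 points, of 13775 genes, were Shisa5 (r = 0.94), Jak1 (0.91), Tsc22d3 (0.90), Tor1aip1 (0.89) and Myh9 (0.89).

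The next comparison asked how the genes differed between acute colitis and untreated tissue in the columnar lining. All 10 members were higher in columnar cells at day 7 than at day 0, where 37.1% of the genes tested were higher. Their median log2 ratio of CPM + 10 was 0.83, against -0.14 for all genes tested. Past the fold means a log2 ratio of 1 or more in size for a gene that reached 10 CPM in one of the libraries compared, and 9 of the 10 members passed that filter. Past the fold were 2 members, both upward, where 4.02% of the genes tested were past the fold upward. With size factors, or with 1 CPM added in place of 10, 5 members had a log2 ratio of 1 or more. Counts under such alternatives leave out the filter of 10 CPM, and the shares of all genes under them were not computed. Psmb8 had 34.8 CPM at day 0 (33.1 to 36.6), and the later libraries had 128 (120.3 to 135) and 111 (105 to 117), a log2 ratio of 1.62 at day 7. H2-D1 had 361, 912 and 624 CPM, a log2 ratio of 1.31 at day 7.

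The remaining members of the columnar class at day 7 had log2 ratios between 0.37 and 0.95. B2m had 139 CPM at day 0, 278 at day 7 and 250.2 at day 42, with a log2 ratio of 0.95 at day 7 (0.86 to 1.04). H2-K1 had 389.8, 646 and 762 CPM, and so was highest at day 42. Tap1 had 15.1, 35.7 and 26.9 CPM and Tapbp 79.0, 149 and 124. Psmb9 had 21.7, 46.1 and 34.7 CPM, H2-T23 43.7, 74.98 and 55.5, and Tap2 11.3, 21.3 and 15.3. Apart from H2-K1, all members had their highest summed CPM at day 7 in columnar cells. When each cell was thinned to 1000 UMIs, the share of cells with a UMI was instead higher at day 42 than at day 7 for 6 of these 9, such as B2m at 22.4% and 24.3% and Psmb8 at 9.82% and 12.1%, with overlapping intervals, so no order of these 2 days was read. The neutrophil gene cluster 22 was 26.3% of columnar cells at day 7 and 0.298% at day 42, so the mixtures differed. Between day 0 and day 7 the Poisson intervals of all 10 were apart. At day 7 the 10 leukocyte markers summed to 127 CPM in columnar cells, with all 10 detected and a UMI in 26.6% of cells, against 8.75 CPM and 2.11% at day 0 and 20.0 CPM and 3.57% at day 42, where Csf3r was at 0 at day 0 and Trac at day 42. In the columnar cells with no leukocyte marker UMI the member median at day 7 was 0.79 and the H2-D1 log2 ratio 1.39.

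At day 42, labelled recovered, the columnar class still had all 10 members above day 0, where 44.4% of genes were higher. The median log2 ratio was 0.58, against -0.026 for all genes tested. Psmb8 alone was past the fold, with a log2 ratio of 1.43 (1.30 to 1.56), where 1.39% of genes were past it upward. With the mean of CPM per cell, 4 members had a log2 ratio of 1 or more, and the share of all genes was not computed there. H2-K1 was next with 0.95, then B2m with 0.81 and H2-D1 with 0.77, while Tap2 had 0.25 and Nlrc5 0.14. From day 7 to day 42, 9 of 10 members were lower (36.0% of genes), with a median of -0.28, none of them past the fold downward (1.63% of genes). H2-K1 was the exception at 0.24. This was not so within cluster 2, the largest columnar cluster, where 5 members were higher at day 42 than at day 7 and 5 lower (47.5% of genes were higher), with a median of -0.056 and sums of 2594 and 2877 CPM. The columnar ratio of H2-D1 to H2-K1 UMIs was 0.93, 1.41 and 0.82 on the 3 days.

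**Figure D3:**
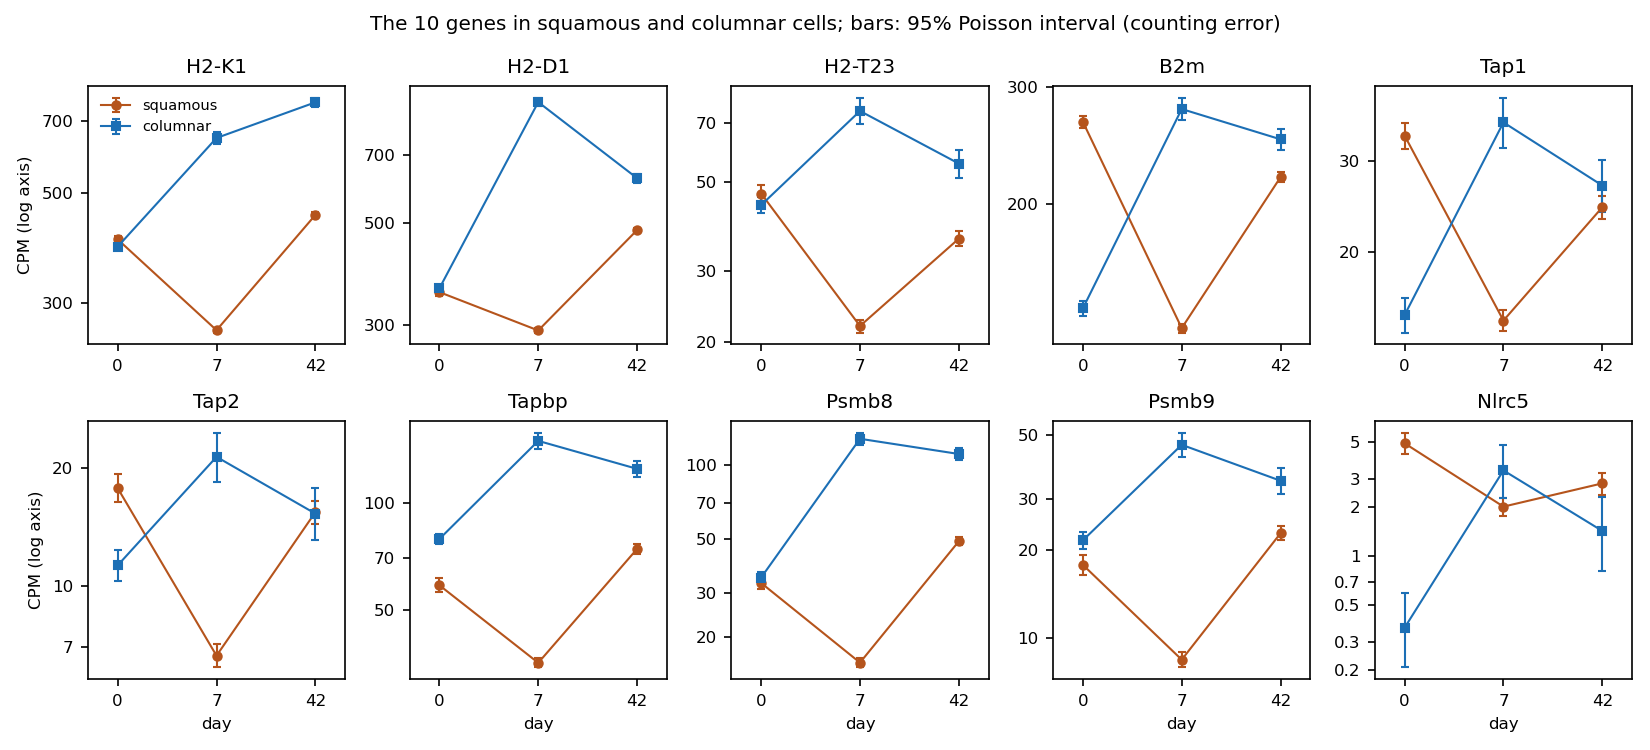
CPM of each gene (logarithmic axis, its own range per panel) in squamous and columnar cells of the 3 libraries, with bars for the 95% Poisson interval, which covers counting error only. Squamous values dip at day 7 in all 10 panels, and columnar values are above day 0 in all 10 at day 7, with Psmb8 going from 34.8 to 128 CPM.

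Part of the columnar class differed in make-up between days, and its clusters were therefore read one by one. Cluster 2, led by the surface colonocyte genes Car4 and Slc26a3, held 45.0%, 66.2% and 63.8% of columnar cells, and cluster 7, led by Stmn1 and Ube2c, 42.0%, 3.11% and 24.5%. Cluster 2 had more class I RNA than cluster 7 on both days with at least 50 cells of each, 1564 against 862 CPM summed over the members at day 0 and 2877 against 1205.5 at day 42. Within cluster 2 the member median was 0.64 at day 7 and 0.67 at day 42, against 0.053 and 0.040 for all genes. Past the fold upward in cluster 2 at day 7 were 4 members, Psmb8, H2-D1, B2m and Psmb9, where 3.07% of genes were. At day 42 they were Psmb8 and B2m, where 1.58% of genes were. Psmb8 in cluster 2 had 26.1, 139 and 154 CPM, a log2 ratio of 2.05 at day 7 (1.85 to 2.25) and 2.18 at day 42. H2-D1 in cluster 2 had 456, 1030.2 and 859.6 CPM. H2-K1 in the same cells had 698, 746 and 1182 CPM, so its log2 ratio was only 0.09 at day 7 and 0.75 at day 42. Cluster 7 at day 42 had a median of 0.43 with Psmb8 at 38.3 and 80.5 CPM, and no member past the fold (0.535% of genes upward). Secretory colonocytes had a median of 0.096 at day 42, with B2m at 90.8 and 163 CPM. Cluster 22, which held 26.3% of columnar cells at day 7 and is led by the neutrophil genes S100a9, S100a8 and Retnlg, had 646 CPM of H2-D1, 296 of H2-K1 and 119 of Psmb8.

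In the squamous lining the 10 genes were lower in colitis. All 10 members had lower CPM at day 7 than at day 0, where 51.0% of the genes tested were lower. The median log2 ratio was -0.67, against -0.0089 for all genes tested. No member was past the fold downward (1.17% of genes), and 9 of 10 passed the filter. With 1 CPM added in place of 10, 5 members were lower by a log2 ratio of 1 or more in size. With totals without mitochondrial and ribosomal protein genes, 1 was. The shares of all genes past the fold were not computed under these alternatives. With 10 CPM added, B2m was closest to the fold, with 266 CPM (261 to 272), 129.5 (128 to 132) and 219 (216 to 223) in the order of days, a log2 ratio of -0.98 at day 7. H2-T23 had 46.7, 21.9 and 36.1 CPM and Tap1 33.7, 14.7 and 24.4, with log2 ratios of -0.83 and -0.82 at day 7. Psmb8 had 33.1, 15.7 and 48.9 CPM, Tap2 17.8, 6.66 and 15.4, and Psmb9 17.9, 8.43 and 22.9. Tapbp had 58.6, 35.5 and 74.2 CPM. H2-K1 had 403, 265 and 452 CPM and H2-D1 354, 292 and 482, and the H2-D1 log2 ratio of -0.27 at day 7 was the smallest in size. The leukocyte markers summed to 20.1, 87.96 and 26.3 CPM in squamous cells, with a UMI in 2.62%, 22.8% and 4.78% of cells. In the squamous cells without such a UMI the median at day 7 was -0.66.

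The keratinocyte clusters differed in class I level and in their share of cells by day. Cluster 8, led by Cst6, Defb6 and Krt79, had the highest summed member level of all keratinocyte clusters on every day, at 2908, 2414 and 3320 CPM. In cluster 8 at day 0, H2-K1 had 964 CPM, B2m 779, H2-D1 704 and Psmb8 104. Cluster 1, led by S100a4 and Serpine2, had 133 CPM of H2-K1, 63.9 of B2m, 169 of H2-D1 and 9.31 of Psmb8. Cluster 8 held 23.6% of squamous cells at day 0 and 42.6% of the class I UMIs of the class, then 10.4% and 21.96% at day 7, then 4.57% and 5.89% at day 42. Weighting the 9 sufficiently large clusters alike gave a squamous median of -0.29 at day 7, against -0.025 for all genes. There 9 of 10 members were lower, and the share of all genes lower was not computed. Without cluster 8, an alternative chosen after the data were seen, the squamous median was -0.46. Within cluster 8 all 10 members were lower at day 7 (61.8% of genes), with a median of -0.34 and none past the fold (0.348% of genes downward). In cluster 3, whose leading genes Ube2c and Birc5 act in cell division, 8 of 10 were lower (54.6% of genes), with a median of -0.45. In cluster 9, led by H19 and Smoc2, 9 of 10 were lower (59.0% of genes), with a median of -0.44. Clusters 4, 5 and 17 had medians of -0.28, -0.36 and -0.29. Cluster 13, led by Scd1, had 6 of 10 lower (48.7% of genes) and a median of -0.04. Cluster 12, led by Krt25 and of 51 cells at day 0, had 6 of 10 lower (33.2% of genes) and a median of -0.31, with Psmb9, from 0 and 59 UMIs, past the fold upward (20.3% of genes). In cluster 1 more members were higher at day 7, with 8 of 10 higher (44.4% of genes) and a median of 0.22, and H2-K1 there was 133 CPM at day 0 and 221 at day 7.

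At day 42 the squamous sum was near its day 0 level, but its commonest clusters were not. For the class, 5 members were higher and 5 lower than at day 0 (45.8% of genes were higher), with a median of 0.017. No member was past the fold in either direction, where 2.79% of genes were upward and 2.39% downward. Without cluster 8, 7 members were higher, and 1, Psmb8, was past the fold with a log2 ratio of 1.06. The shares of all genes without cluster 8 were not computed, and their median log2 ratio was -0.041. Clusters 1, 3 and 5 together held most squamous UMIs at day 42, and each had 2 or more members past the fold upward. In cluster 1 these were 5, H2-K1, H2-D1, B2m, Psmb8 and Psmb9, where 2.94% of genes were, and the median was 0.86. Cluster 1 had 63.9, 80.7 and 209.7 CPM of B2m on the 3 days and 133, 221 and 402 CPM of H2-K1. Psmb8 in cluster 1 had 9.31, 17.1 and 50.4 CPM, a log2 ratio of 1.65 at day 42 (1.33 to 1.94). In cluster 3 there were 4, H2-K1, H2-D1, B2m and Psmb8, where 1.62% of genes were, and the median was 0.65. Cluster 3 had 56.7, 43.6 and 197 CPM of B2m and 8.84, 5.50 and 51.3 CPM of Psmb8. In cluster 5, led by Psca and Ltf, B2m and Psmb8 were past the fold, where 1.80% of genes were, and the median was 0.33. Cluster 5 at day 0 was 87 cells, with 46.4 CPM of B2m from 62 UMIs, and at day 42 had 180 CPM from 3350 UMIs. Cluster 8 by contrast had a median of 0.19 at day 42 and no member past the fold (0.247% of genes upward). Its B2m was 779, 619 and 937 CPM. Cluster 13 had B2m and Psmb8 past the fold upward (0.905% of genes). Cluster 17, of 63 cells at day 42, had 2 members past the fold downward (6.10% of genes), H2-T23 from 69 and 2 UMIs and Psmb9 from 40 and 3 UMIs, and a median of -0.07. Without cluster 8 the squamous median at day 42 was 0.43, and 0.28 when all clusters counted alike.

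**Figure D4:**
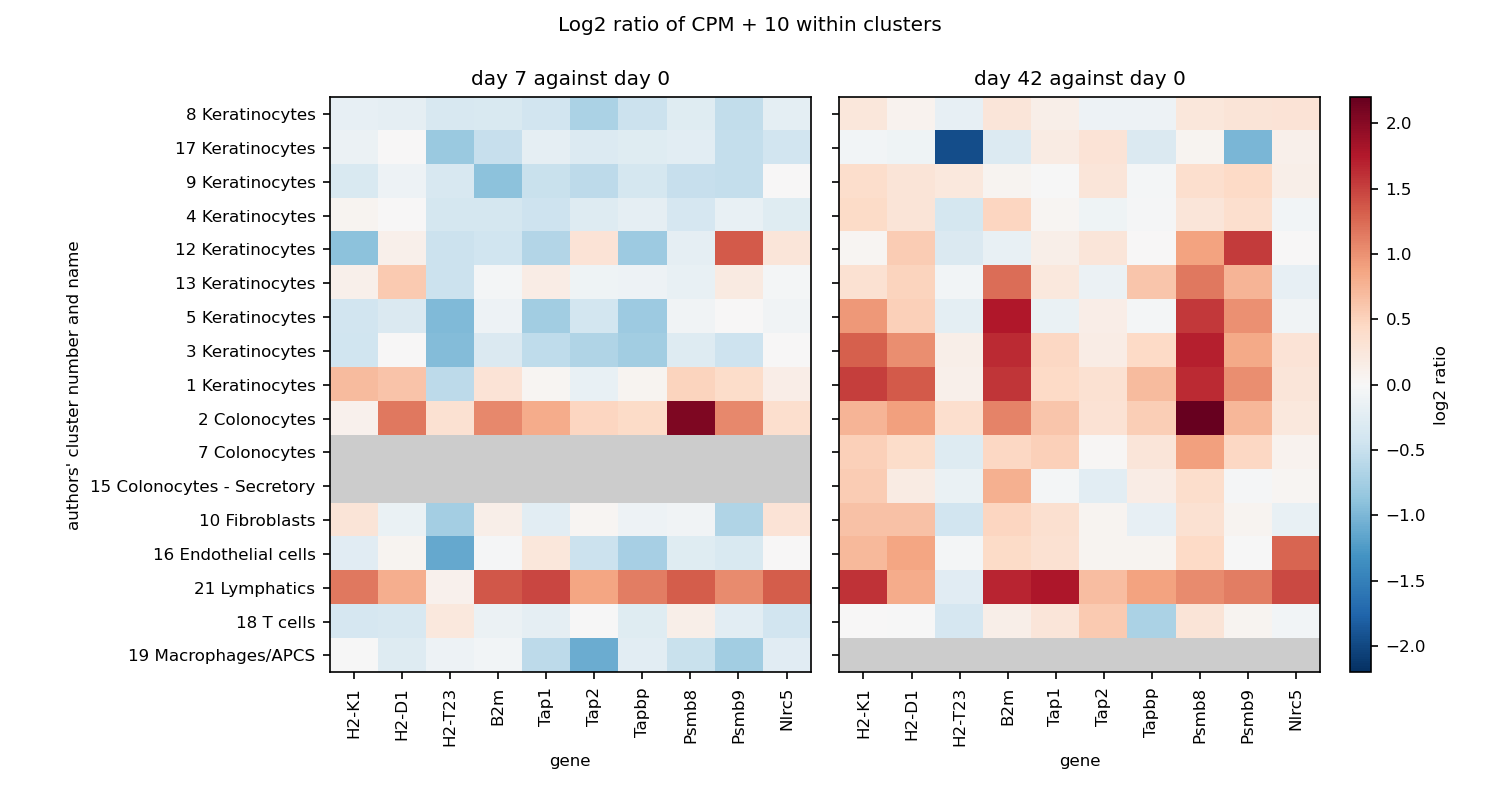
Log2 ratio of CPM + 10 against day 0 for each gene (columns) in clusters that had 50 or more cells on both days (rows), red for higher and blue for lower; grey marks comparisons with too few cells. Clusters 6 and 14 also had 50 or more cells on each day and are not drawn. Keratinocyte clusters 1, 3 and 5 are red at day 42 for B2m (1.57, 1.64 and 1.75) and Psmb8 (1.65, 1.70 and 1.56), and cluster 8 is pale.

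Between day 7 and day 42 all 10 members were higher in squamous cells (44.3% of genes), with a median of 0.71. Psmb8 was past the fold with a log2 ratio of 1.20, where 2.09% of genes were upward. In cluster 3 alone 8 of 10 were past the fold (1.65% of genes), with a median of 1.15, led by Psmb8 at 1.98 and B2m at 1.95. The day 7 and day 42 libraries are each compared with the same day 0 library above, so the comparisons with day 0 share their baseline. H2-T23 had smaller log2 ratios than the classical heavy chains at day 42 in clusters 1 and 3. In cluster 1 it had 31.1, 17.6 and 34.4 CPM, a log2 ratio of 0.11 at day 42 beside 1.53 for H2-K1 and 1.34 for H2-D1. In cluster 3 it had 26.5 and 30.1 CPM at day 0 and day 42, a log2 ratio of 0.13 beside 1.32 and 1.03, but from day 7 to day 42 its ratio there was 1.09, beside 1.02 for H2-D1.

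Levels per cell were read after each cell was thinned to 1000 UMIs, so that depth could not set the share of cells with a UMI. Median depths were 9168, 11481 and 6542 UMIs in squamous cells and 8916.5, 4017 and 5951.5 in columnar cells. Thinned columnar cells held on average 1.32, 2.39 and 2.75 class I UMIs, and 37.2%, 22.5% and 21.7% of them held none. Without cluster 22, an alternative chosen after the data were seen, the means were 1.32, 2.63 and 2.75, and in cluster 2 alone 1.81, 2.79 and 3.64. Cells with at least 5 were 4.53%, 13.7% and 21.1% of columnar cells. Thinned squamous cells held 1.41, 0.96 and 1.43 on average, and 39.5%, 46.7% and 33.7% held none. Cells with at least 5 were 7.07%, 2.03% and 5.43% of squamous cells. For Psmb8, thinned colonocytes had a UMI in 2.24%, 9.87% and 12.6% of cells, and before thinning in 23.8%, 37.5% and 43.5%. For B2m the thinned shares were 12.8%, 22.7% and 26.0% in colonocytes and 22.2%, 14.5% and 19.2% in keratinocytes. In thinned red blood cells at day 7 the B2m share was 2.12%, and before thinning 0 of 210 held a Psmb8 UMI, which allows a share of up to 1.43% (3 counts). At the higher columnar levels fewer cells were at 0 and more were in the upper range.

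**Figure D5:**
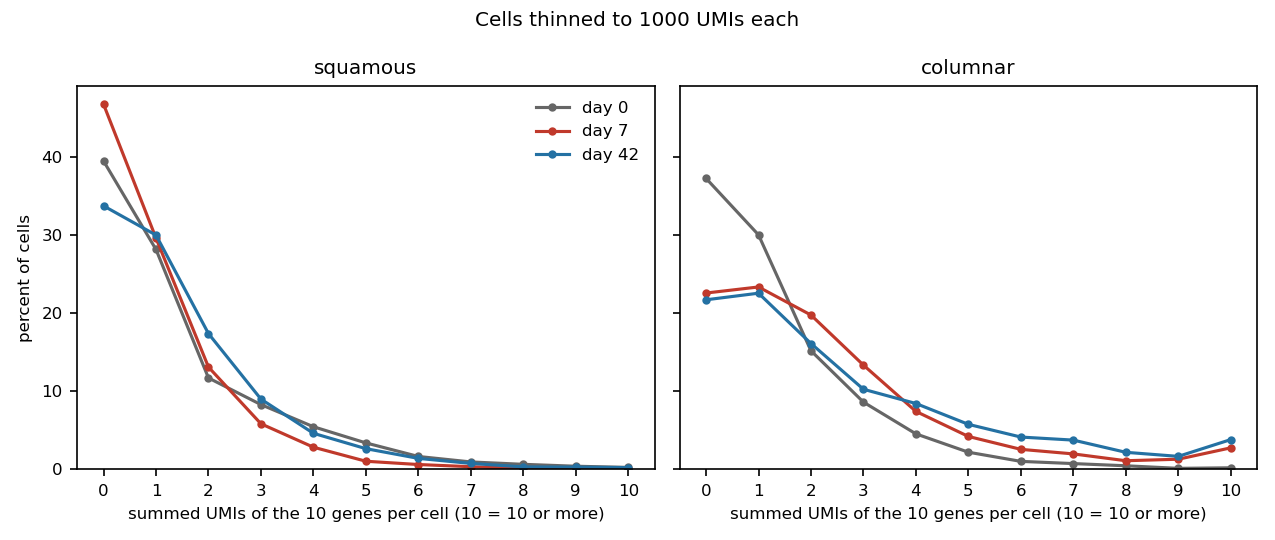
Percent of squamous (left) and columnar (right) cells by the summed UMIs of the 10 genes per cell, after thinning each cell to 1000 UMIs; the last point counts cells with 10 or more. In columnar cells the share at 0 is 37.2%, 22.5% and 21.7% in the order of days, and in squamous cells it is highest at day 7, at 46.7%.

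The constitutive proteasome subunits that Psmb8 and Psmb9 replace gave a reference within the same cells. The ratio of Psmb8 to Psmb5 UMIs in columnar cells was 0.20 at day 0 (0.19 to 0.21), 0.73 at day 7 and 0.575 at day 42, and in squamous cells 0.15, 0.050 and 0.19. Psmb9 against Psmb6 gave 0.10, 0.22 and 0.15 in columnar and 0.069, 0.025 and 0.078 in squamous cells. Psmb10, the third immunoproteasome subunit, against Psmb7 gave 1.03, 1.84 and 1.65 in columnar and 0.30, 0.33 and 0.44 in squamous cells. At day 7 the squamous ratios of Psmb8 and Psmb9 were lower than at day 0, while that of Psmb10 was not. Psmb5 had 175, 175 and 193 CPM in columnar cells and 223, 317 and 264 in squamous cells, so both parts of the squamous ratio differed at day 7.

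The rest of the pathway was taken from fixed lists. Of 15 other class I heavy chains, 14 were in the table and 4 passed the filter in squamous cells at day 7, where 1, H2-Q7, was past the fold downward (1.17% of genes). H2-Q7 had 33.4, 10.5 and 29.8 CPM, H2-Q4 22.2, 7.86 and 15.7, and H2-T22 35.5, 16.6 and 28.4, and the list median was -0.81 at day 7. In columnar cells 3 passed the filter and none was past the fold at either day. The shares of all genes past it downward were 2.43% at day 7 and 0.433% at day 42, and in squamous cells 1.38% were upward at day 7. H2-T22 had 26.0, 31.5 and 29.3 CPM in columnar cells. The 7 peptide loading and trimming genes all passed, with none past the fold in either class at day 7 or day 42. Their columnar median at day 7 was 0.45. Within cluster 2, Calr and Hspa5, a chaperone of the endoplasmic reticulum, were past it upward at day 7, with log2 ratios of 1.20 and 1.33 (3.07% of genes). Calr, the chaperone calreticulin, had 334, 635 and 464 CPM in columnar cells, and Tapbpl, a relative of tapasin, 18.9, 40.0 and 26.8. Of 9 proteasome genes none was past the fold in either class. Psme2 was past it upward in cluster 2 at day 42 (1.10, where 1.58% of genes were). Psmb10 (1.15) and Psme2 (1.05) were in lymphatic cells at day 7, where 7.57% of genes were. From the other lists H2-Q4 (1.35), H2-Q7 (2.11), H2-T22 (1.08) and Irf8 (1.41) were too in lymphatic cells at day 7, from 4 to 10 UMIs each at day 0. Calls in other clusters are not listed here. Psme2, a subunit of the interferon-induced proteasome cap, had 106, 179.7 and 177 CPM in columnar and 173, 168 and 155 in squamous cells. Of 19 regulators, 15 passed in columnar and 13 in squamous cells at day 7, with none past the fold. Irf1, an interferon regulatory factor, had 71.6, 84.0 and 72.9 CPM in columnar cells and 15.3, 12.6 and 21.6 in squamous cells.

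Interferon RNA was rare. Ifng, which encodes interferon gamma, had 94, 11 and 47 UMIs in the whole libraries, of which 92, 9 and 47 lay in T cells. An Ifng UMI was found in 11.9% of 219 T cells at day 0 (Clopper-Pearson 95% interval 7.90 to 16.9), 5.08% of 118 at day 7 (1.89 to 10.7) and 8.26% of 121 at day 42 (4.03 to 14.7), and these intervals overlap. The Ifng level in T cells differed more, at 166 CPM, 27.1 CPM and 236 CPM. Its log2 ratio was -2.25 at day 7 against day 0, past the fold downward (4.85% of genes), and 2.73 at day 42 against day 7, past it upward (6.50% of genes). Ifnb1, Ifnl2 and Ifnl3 had no UMI in any library. Among the lymphocyte receptors for class I, Klrd1, which encodes the CD94 chain that reads Qa-1, had a UMI in 20.5%, 27.1% and 18.2% of T cells, Cd8a in 0.913%, 3.39% and 5.79%, and Cd8b1, the other CD8 chain, in 3.65%, 3.39% and 1.65%. The Clopper-Pearson intervals of both CD8 chains overlapped on all days. In T cells Cd8a had 9.05, 33.2 and 60.2 CPM, from 5, 11 and 12 UMIs, and Cd8b1 25.3, 18.1 and 25.1 CPM. No listed interferon or receptor gene reached 10 CPM in either epithelial class.

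Outside the epithelium the lymphatic cells differed most. Their median log2 ratio was 1.14 at day 7 and 1.08 at day 42, with 7 and 6 members past the fold upward, where 7.57% and 9.99% of genes were. B2m in lymphatic cells had 416 CPM at day 0 (85 UMIs), 1092 at day 7 (860 UMIs) and 1353.6 at day 42 (235 UMIs), and H2-K1 had 406, 919 and 1244 CPM. These rest on 63 cells at day 0, where Tap1 had 3 UMIs, Psmb9 7 and Nlrc5 none, and the counting interval of the Psmb9 log2 ratio at day 7 reached from -0.15 to 2.26. The day 0 intervals of H2-K1 and B2m were apart from those of both later days. In endothelial cells the median was -0.20 at day 7 and 0.35 at day 42. Past the fold were H2-T23 downward at day 7 (5.94% of genes) and, from 3 and 11 UMIs, Nlrc5 upward at day 42 (6.72% of genes). H2-K1 in endothelial cells had 1188, 1010 and 1912 CPM and H2-D1 1084, 1166 and 1947. T cells had medians of -0.22 and 0.049 and fibroblasts of -0.095 and 0.20. Macrophages at day 7 had 10 of 10 members lower (61.3% of genes), with a median of -0.27 against -0.18 for all genes. Tap2 alone was past the fold there, from 28 and 37 UMIs, where 8.51% of genes were downward. Neutrophils at day 42 against day 7 had a median of 0.61 against 0.30 for all genes, with H2-K1 past the fold at 1.10 (6.41% of genes upward). Their median depth was low at day 42, where thinning kept 45 of 448 cells.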

How the data were processed

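RNA of single cells from distal colon and anus was measured in 3 libraries, 1 per day. Per the labels' protocols, tissue was digested with trypsin, depleted of dead cells and made into 10x Chromium 3' libraries. Cell Ranger 3.0.2 and build mm10 are named in the submitters' processing notes. The annotation release, filters on cells, handling of doublets and method of cell typing are not given in the sources used here. The authors deposited whole-number counts per gene and cell, taken as UMIs from the 3' chemistry. The deposited size factor is a ratio, each cell's total divided by 5283.43, and was used only to check the order of the cells. The size factors named in the results are others, set by the median ratio of genes between the libraries compared. Groups are the authors' cluster numbers, cell type names and days.

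UMIs were summed per group and library, scaled to CPM and compared by log2 ratios after adding 10 CPM. Poisson and Clopper-Pearson 95% intervals cover counting error only. With 1 library per day, no p-value was computed. The computation was tested on simulated data. Named were the 10 members, fixed lists of pathway genes, and the 5 genes with the highest correlation to the members' mean. Members and lists were chosen with earlier results of these data known. Leading genes of clusters were the 5 with the highest log2 ratio against the rest of their class. Of the gene identifiers, 30934 (99.6%) were in GENCODE M21, which gave the coordinates, and promoters came from RefSeq (GRCm38.p6). The GAANNGAAA form and the alternatives without clusters 8, 12 or 22 were chosen after seeing the data. Other alternatives were other scalings, a filter on cells (at least 1000 UMIs and 500 genes, at most 20% mitochondrial UMIs), equal cluster weight, mean CPM per cell, a pseudocount of 1 CPM, cells without leukocyte markers, doublet scores (Scrublet), and leaving out the 10 cells with most UMIs. The scripts used matplotlib 3.10.9 for figures and scanpy 1.11.5 for doublets, with scipy 1.17.1, pandas 2.3.3 and numpy 2.4.6 in Python 3.11.15.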

Additional observations from a re-analysis of the deposited data

Results flagged for a closer look

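The squamous and columnar classes differed from day 0 in opposite directions at day 7. The member median log2 ratio was -0.67 in squamous cells, with all 10 members lower, and 0.83 in columnar cells, with all 10 higher. Every member was thus lower in squamous and higher in columnar cells, as were 15.6% of the 7284 genes that passed the filter of 10 CPM in each class. Of the 10 members, 9 passed it in both classes. The difference between the classes was not tested, since each day had 1 library. Within clusters, keratinocyte cluster 1 had a median of 0.22 and cluster 8 one of -0.34, while colonocyte cluster 2 had 0.64. For the columnar class this was 1 cluster with enough cells on both days, against 9 for the squamous class, so spread among columnar clusters could not be seen.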

How the results depend on the processing

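No paired analysis was possible because there was 1 library per day and the labels carry no replicate numbers, and for the same reason no library could be left out. In columnar cells all 10 members stayed above 0 at day 7 and at day 42 under every alternative run. The columnar median at day 7 was 0.99 with size factors, 0.64 with equal weight to the clusters (cluster 2 alone) and 1.03 with a pseudocount of 1 CPM. At day 42 it was 0.42 with equal weight to the clusters (2, 7 and 15) and 0.79 with a pseudocount of 1 CPM. Members past the fold were 2 at day 7 and 1 at day 42. Over the alternatives, counted without the 10 CPM filter, members with a log2 ratio of 1 or more ran from 2 to 5 at day 7. At day 42 they ran from 1 to 4. Shares of all genes above 0 or past the fold were not computed under the alternatives.

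The squamous median at day 7 was -0.56 with size factors, -0.83 with totals without mitochondrial and ribosomal protein genes, -0.29 with equal cluster weight, -0.54 as the mean of CPM per cell, -1.015 with a pseudocount of 1 CPM and -0.46 without cluster 8. Members past the fold downward were none, but 5 with a pseudocount of 1 CPM and 1 with the totals without mitochondrial and ribosomal protein genes. Those alternative counts leave out the 10 CPM filter, and shares of all genes were not computed for them. At day 42 the squamous median was 0.17 with size factors, -0.090 with those reduced totals, 0.28 with equal cluster weight, 0.43 without cluster 8 and 0.16 over members with at least 10 CPM. It was -0.069 as the mean of CPM per cell and -0.014 with a pseudocount of 1 CPM, so its sign depends on these choices. Equal cluster weight gave 9 of 10 members above 0 there, against 5, where the median of all genes was -0.030 and their share above 0 was not computed. The cause of these shifts was not tested. Size factors moved the median of all genes from -0.0089 to 0.13 at day 7 and from -0.034 to 0.11 at day 42 in squamous cells, and from -0.14 to 0.025 at day 7 in columnar cells. Over 420 log2 ratios of single members under alternatives, 413 kept their sign, but 144 moved beyond counting error. Shares of cells with a UMI moved beyond it in 256 cases and did not in 34 when cells were thinned to 1000 UMIs. Thinning takes UMIs away and so lowers such shares, and this count does not show whether differences between days or groups depend on depth. Genes with few UMIs, such as Nlrc5, are limited by depth.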
